A study of Mus musculus with 16 samples.

Results

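The serum amyloid A genes Saa1, Saa2, Saa3 and Saa4, the lipocalin gene Lcn2 and the gene of lipopolysaccharide-binding protein, Lbp, were looked up by symbol in the 4 deposited tables of changed genes. Of these 6 genes, 4 were found (Saa2, Saa3, Lcn2 and Lbp), out of 5171 distinct genes in the tables as a whole. Saa1 and Saa4 are in none of the 4 tables and were not analysed here. The libraries were made from whole colon tissue of C57BL/6 mice, males by the study's methods, in 4 groups: 3 libraries of WT control, 3 of KO control, 5 of WT colitis and 5 of KO colitis. KO mice carried the Vil-cre transgene, which drives Cre recombinase from the villin promoter in the intestinal epithelium, and floxed exons of Smarcad1, a chromatin remodelling ATPase. Cells outside the epithelium keep the gene in these mice, which came from a single embryonic stem cell clone. Whether WT mice carried Cre or floxed alleles is not given in the sources used here, nor is the age of the mice. All groups were exposed to microbiota of donor mice from another facility through bedding transfer and shared ventilation, from 2 weeks before colitis. Colitis groups drank dextran sulphate sodium (DSS), a polymer that injures the colon lining, at 1% until harvest at 15 days. The labels and the study's methods name colon as the tissue, the methods its central part, whereas the series' design text names small intestinal tissue.

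Serum amyloid A proteins are small apolipoproteins made in large amounts during the acute phase, the rapid change in secreted proteins that follows infection or injury. Saa1 and Saa2 are known mainly as liver genes that are also used by the intestinal epithelium, while Saa3 is known from tissues outside the liver, including macrophages, fat and the gut lining. Lcn2 encodes a siderophore-binding protein that keeps iron from bacteria, is made by neutrophils and injured epithelium, and is measured in faeces as a marker of gut inflammation. Lbp hands bacterial lipopolysaccharide to CD14 and Toll-like receptor 4. These genes are induced by interleukins 6, 1, 17 and 22 through factors of the STAT, NF-κB and C/EBP families.

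Saa3 (ENSMUSG00000040026) is a minus strand gene of chromosome 7, between 46711998 and 46715700 (GRCm38). Saa2 (ENSMUSG00000057465) is a plus strand gene of the same chromosome, between 46751790 and 46754313. The gap between them is 36089 bp and holds Saa4, a pseudogene and Saa1. On chromosome 2, Lcn2 (ENSMUSG00000026822) spans 32384633 to 32388252 (minus strand) and Lbp (ENSMUSG00000016024) spans 158306493 to 158332852 (plus strand). All 4 are protein coding, and the positions of all 4 genes in the tables are those of the GENCODE annotation.

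**Figure D1:**
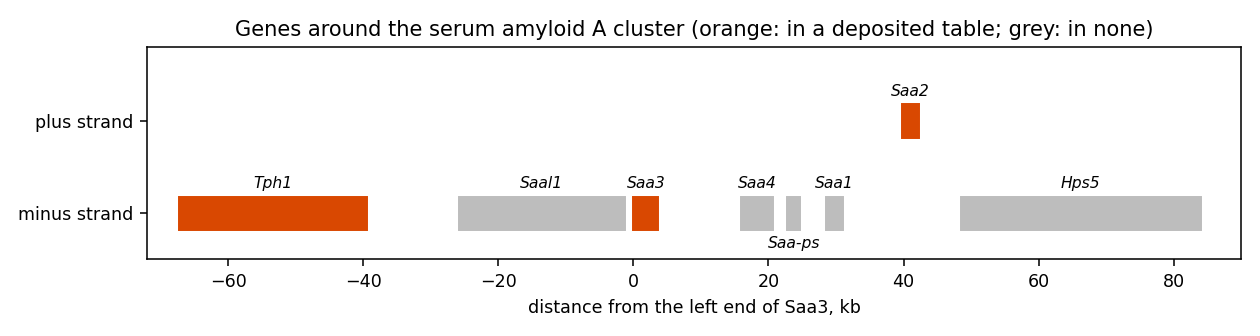
Genes around the serum amyloid A cluster on chromosome 7, drawn by distance in kb from the left end of Saa3 with plus strand genes above minus strand genes. Saa3, Saa2 and Tph1 are in a deposited table (orange); the genes between Saa3 and Saa2 are in none (grey).

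The sequences before the start sites are shown because these genes are known to be switched on at this position. Among the 4 genes analysed, the set of RefSeq promoters (GRCm38.p6) used here holds Saa2, Saa3 and Lcn2 but has no entry for Lbp. Each line runs 5′ to 3′ from 250 to 61 bases before the start, on the strand of the gene. Capitals mark matches to the C/EBP core written TTGCNNAA, read on either strand. Saa1 is added because it is the near copy of Saa2. The regions are chr7:46715737-46715926 (minus) for Saa3, chr7:46751583-46751772 (plus) for Saa2, chr7:46743041-46743230 (minus) for Saa1 and chr2:32387800-32387989 (minus) for Lcn2. None of the first 3 regions holds an annotated exon of its gene, while 139 of the 190 bases of the Lcn2 region lie in an exon of an alternative transcript.
Saa3: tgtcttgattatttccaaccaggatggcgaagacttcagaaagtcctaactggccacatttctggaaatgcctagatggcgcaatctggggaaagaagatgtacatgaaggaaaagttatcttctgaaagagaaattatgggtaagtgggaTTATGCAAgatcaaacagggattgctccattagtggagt
Saa2: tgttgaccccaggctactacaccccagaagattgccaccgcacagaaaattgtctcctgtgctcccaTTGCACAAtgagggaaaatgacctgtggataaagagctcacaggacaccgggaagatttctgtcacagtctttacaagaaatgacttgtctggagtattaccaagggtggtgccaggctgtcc
Saa1: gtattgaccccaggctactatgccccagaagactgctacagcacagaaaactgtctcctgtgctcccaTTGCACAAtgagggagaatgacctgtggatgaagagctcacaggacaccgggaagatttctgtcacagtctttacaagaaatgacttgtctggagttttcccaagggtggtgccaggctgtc
Lcn2: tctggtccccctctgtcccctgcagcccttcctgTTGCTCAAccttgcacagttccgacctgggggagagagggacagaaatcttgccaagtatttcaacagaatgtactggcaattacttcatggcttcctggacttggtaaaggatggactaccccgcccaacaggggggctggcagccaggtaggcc

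The C/EBP core was found once before each of these genes, from −99 to −92 in Saa3 (on the opposite strand), from −183 to −176 in Saa2, from −182 to −175 in Saa1 and from −216 to −209 in Lcn2. Of all 32851 RefSeq promoters cut to the same 250 bases, 9.56% hold such a match. The letters were chosen with these sequences seen, and the windows of Saa1 and Saa2 are near copies. Enrichment was not tested. A STAT element (TTCNNNGAA, in 7.02% of promoters), an NF-κB core (GGGANTTTC, in 0.941%), an AP-1 element (TGANTCA, in 6.75%) and a TATA box (TATAAA, in 12.4%) had no match in these 4 windows, which says only that these letters are not there. The 250 bases of Saa1 and Saa2 were 94.8% identical, and those of Saa2 and Saa3 47.9%.

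Saa1 and Saa2 were also alike in their spliced transcripts, with 93.9% identity between the lowest-numbered GENCODE transcripts, against 60.8% between Saa2 and Saa3. The longest stretch shared without a difference between these transcripts of Saa1 and Saa2 was 99 bases, against reads of 100 bases by the labels. Over all 4 annotated transcripts of Saa2, however, 230 of 2666 distinct windows of 100 bases (8.63%) were also found in a transcript of Saa1. A single read from these windows cannot by itself be assigned to either gene, and the authors kept uniquely mapped reads, so the count of Saa2 is uncertain. The study's methods give paired-end reads, and whether a mate outside these windows placed such reads was not examined. Over all annotated transcripts of Saa3 (3), Lcn2 (6) and Lbp (5), no window was found in a transcript of another gene.

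The tables hold the authors' group means of log2 reads per M reads of the library (log2 RPM), which are not corrected for gene length. The geometric mean library size, recovered from the lowest means, was 8.005 to 10.11 M reads. At this depth, 3 reads per library correspond to −1.75 log2 RPM in WT control, −1.70 in KO control, −1.42 in WT colitis and −1.72 in KO colitis, and lower means were set to this floor before differences were taken. As the values are group means, no spread between mice is given and no test was run here. The intervals below cover 95% of the counting error only, and mice of 1 group can differ by far more. A gene is said to rise or fall where it is in the authors' table for that comparison, which holds genes that passed DESeq2 at a false discovery rate of 0.05. Below, all genes means the 5171 genes in any of the tables. Each of them passed in some comparison, so shares, ranks and medians over them are not those of all genes expressed in colon. Smarcad1, the targeted gene, was lower in KO in control (5.77 in WT and 4.59 in KO, as log2 RPM) and in colitis (5.68 and 4.55), and is in both tables of genotype.

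**Figure D2:**
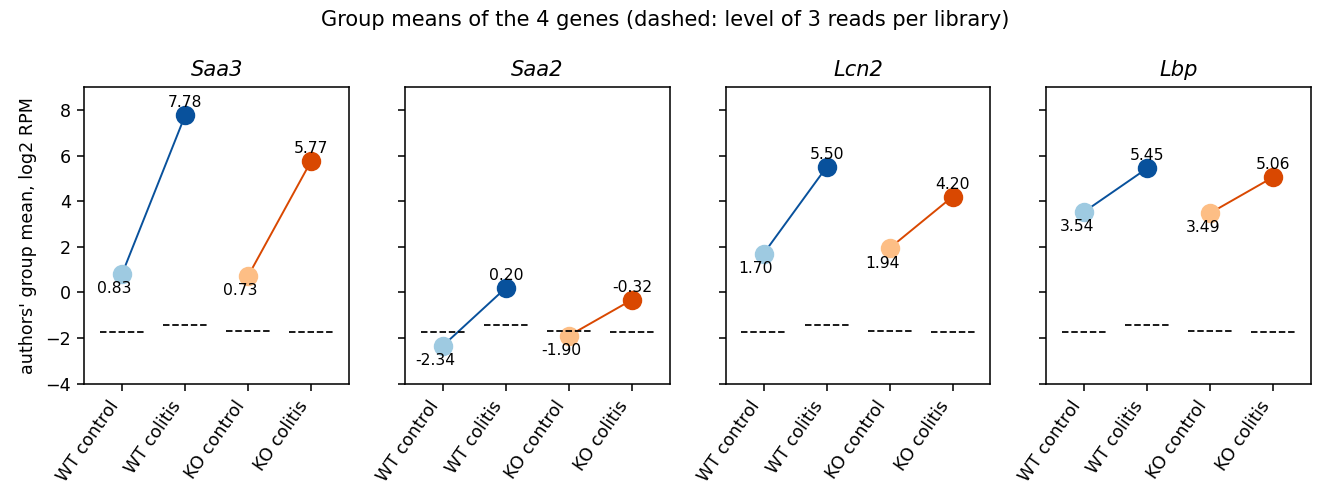
Authors' group means of Saa3, Saa2, Lcn2 and Lbp in log2 RPM (vertical axis) in each group, with lines joining control and colitis of 1 genotype and dashes at 3 reads per library. Saa3 goes from 0.83 to 7.78 in WT and from 0.73 to 5.77 in KO, and both control means of Saa2 lie under the dashes.

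All 4 genes rose with colitis in WT colon, where 36.6% of the 5171 genes are in the table with a higher mean and 26.4% with a lower one, and Saa3, Lcn2 and Lbp rose in KO colon, where these shares were 44.8% and 33.6%. Saa3 rose most, 124-fold in WT and 32.9-fold in KO. Lcn2 rose 13.9-fold and 4.79-fold, and Lbp 3.75-fold and 2.98-fold, in the same order. All 4 genes were higher by at least 1 on the log2 scale in both genotypes, as were 18% of all genes in WT and 15.2% in KO. In whole tissue, more cells of a type and more RNA per cell cannot be told apart.

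The control means of Saa3 were 0.83 (WT) and 0.73 (KO) log2 RPM, and its colitis means 7.78 (WT) and 5.77 (KO). This was near 17.9 and 16.2 reads per library in the control groups and 1750 and 539 in colitis. Both control means were low and close to each other, and both colitis means stood far above them. The colitis change was 6.95 on the log2 scale in WT (counting interval 6.56 to 7.34) and 5.04 in KO (4.63 to 5.45). In each genotype this change was the 6th highest of the 5171 genes.

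Saa2 was the scarcest of the 4 genes. Without treatment its means were −2.34 (WT) and −1.90 (KO) log2 RPM, both under the floor, and in colitis they were 0.20 (WT) and −0.32 (KO). These correspond to 2.0, 2.62, 9.22 and 7.88 reads per library. In WT control the means allow only 3 sets of counts for the 3 libraries, from 6 to 10 reads in all, with at least 1 read in each. From the means as deposited, Saa2 was 5.82-fold higher in colitis in WT (counting interval 2.49 to 13.6), where it rose, and 2.98-fold in KO (1.38 to 6.40), where it is not in the table. With the control means set to the floor, the changes were 1.96 and 1.38 on the log2 scale. With a floor of 10 reads per library, which is above all 4 means of Saa2, they were 0.34 and −0.015.

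For Lcn2 the control means were 1.70 (WT) and 1.94 (KO) log2 RPM, and the colitis means 5.50 (WT) and 4.20 (KO). Among the control groups KO was the higher one, and among the colitis groups WT. The colitis change was 3.80 on the log2 scale in WT (counting interval 3.51 to 4.09) and 2.26 in KO (1.98 to 2.54), the 58th and 167th highest of all genes.

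Lbp had the highest control means of the 4 genes, also per length, 3.54 log2 RPM in WT and 3.49 in KO. In colitis its means were 5.45 in WT and 5.06 in KO. The change was 1.91 on the log2 scale in WT (counting interval 1.74 to 2.07) and 1.58 in KO (1.41 to 1.75). Lbp thus had nearly the same means in both genotypes without treatment, and its colitis means differed less than those of Saa3 and Lcn2.

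Levels of different genes were compared per length, as log2 RPM per kb of all annotated exons. In both control groups the order was Lbp, Lcn2, Saa3 and Saa2, with levels per kb of 1.27, 0.31, −0.56 and −3.67 in WT and of 1.21, 0.55, −0.65 and −3.23 in KO. In both colitis groups the order was Saa3, Lcn2, Lbp and Saa2, at 6.39, 4.11, 3.18 and −1.13 per kb in WT and at 4.39, 2.81, 2.79 and −1.66 in KO. Saa3 thus passed from the third place to the first. In KO colitis, Lcn2 and Lbp were only 0.02 apart on this scale. Per kb of the spliced transcript with the lowest number in GENCODE for each gene the order was the same in all 4 groups, but Lcn2 and Lbp were then 0.60 apart in KO colitis, and Lbp and Lcn2 0.08 apart in KO control.

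To see how the genotype bears on these genes, KO was set against WT within each condition. None of the 4 genes is in either table of genotype, in which 0.387% of all genes are listed as lower in KO colitis and 0.367% as lower in KO control. In untreated colon the means differed by −0.09 for Saa3 (counting interval −0.65 to 0.47), by 0.24 for Lcn2 (−0.15 to 0.63) and by −0.06 for Lbp (−0.27 to 0.16), on the log2 scale as KO minus WT. For Saa2 no difference is given, as both control means are under the floor. None of these 3 differences exceeded its counting error.

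In colitis all 4 means were lower in KO. Saa3 was lower by a factor of 4.01, a difference of −2.0 on the log2 scale (counting interval −2.07 to −1.94), which is the 19th lowest of all genes. Lcn2 was lower by a factor of 2.46, a difference of −1.30 (−1.41 to −1.18) and the 68th lowest. Lbp differed by −0.39 (−0.48 to −0.29) and Saa2 by −0.53 (−1.14 to 0.09), so that the interval of Saa2 includes 0. Saa3 and Lcn2 were thus lower by at least 1, as were 2.53% of all genes. Among the 1895 genes that rose in WT colitis, a set chosen by its WT values, 69.9% had a lower mean in KO colitis and 5.17% were lower by at least 1. These differences passed counting error for Saa3, Lcn2 and Lbp, but not the authors' test between mice, and a gene that misses that test is not shown to be equal in both genotypes.

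The colitis change itself was smaller in KO than in WT by 1.91 on the log2 scale for Saa3 (difference of changes −1.91, counting interval −2.47 to −1.35), by 1.54 for Lcn2 (−1.54, −1.94 to −1.13) and by 0.33 for Lbp (−0.33, −0.57 to −0.09). For Saa2 the difference of changes was −0.58 (−2.05 to 0.89) with both control means set to the floor. With the means as deposited it was −0.97, so the value depends on the floor. Over all genes the median was −0.02, and 3.81% of genes had a change smaller by at least 1 in KO. The 2 changes share no library, but each is also part of the comparisons of genotype above. Whether the colitis response differs between genotypes beyond the spread between mice was not tested.

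**Figure D3:**
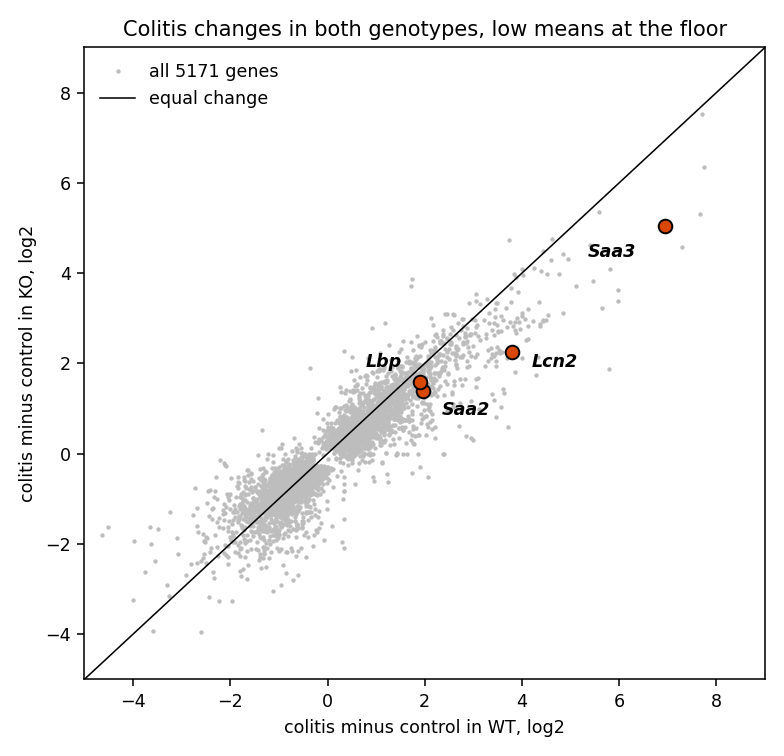
Colitis minus control on the log2 scale in WT (horizontal axis) and KO (vertical axis) for all 5171 genes (grey) and the 4 genes (orange), with low means at the floor and a line of equal change. Saa3 (6.95, 5.04) and Lcn2 (3.80, 2.26) lie well under the line, Saa2 (1.96, 1.38) and Lbp (1.91, 1.58) nearer to it.

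Taken as a list that includes the 4 genes, acute phase reactants mostly moved in the same direction. Of the list of 31 such genes, which includes the 6 genes looked up, 20 are in the tables. The counts and medians of this paragraph thus count the 4 genes too. In WT, 18 rose and 1 fell, and in KO 14 rose and none fell, where 36.6% (WT) and 44.8% (KO) of all genes rose. Over the list the median change was 2.59 (WT) and 2.08 (KO), against 0.13 and 0.19 over all genes. Of the genes not yet described, those with the largest change in WT were Serpina3m, a serine protease inhibitor (4.49 in WT, 2.96 in KO), Lrg1, a secreted leucine-rich glycoprotein (3.84, 3.99), Ptx3, a soluble pattern recognition receptor (3.58, 2.26), and A2m, a broad protease inhibitor (3.56, 2.24). All 4 rose in both genotypes. The control means of Serpina3m and A2m were at or under the floor, and as deposited the changes of A2m were 4.42 (WT) and 3.10 (KO). The gene that fell in WT was Orm1, an orosomucoid (−2.04 in WT, −1.72 in KO). In colitis 18 of the 20 genes had a lower mean in KO, and 8 were lower by at least 1. For comparison, 69.9% of the genes that rose in WT colitis had a lower mean in KO colitis, and 5.17% of them were lower by at least 1. Of all genes, 2.53% were lower by at least 1. The one gene listed for genotype was Mt1, a metallothionein, with a difference of 1.53 in control and 1.26 in colitis (KO minus WT), which rose with colitis in neither genotype. Orm1 and Mt1 were chosen for mention after their values were seen.

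The cytokines that induce these genes were low in control and higher in colitis. Of 12 such cytokines 11 are in the tables, of which 9 rose in WT and 8 in KO, and none fell, against 36.6% and 44.8% of all genes that rose. Those with the largest change in WT were Il11, a cytokine of the interleukin 6 family (5.97 in WT, 3.38 in KO), Il1b (5.46, 3.83), Il6 (4.32, 2.15) and Tnf (3.86, 2.73). Il11 and Tnf rose in both genotypes, Il1b is in the table for KO only and Il6 in that for WT only. Il6 was at 0 reads in every control library, so these values are bounds against the floor, at least 20-fold (WT) and at least 4.43-fold (KO). The WT control mean of Il11 was under the floor too, and as deposited its change in WT was 6.74. In colitis, all 11 means were lower in KO, as were those of 69.9% of the genes that rose in WT colitis. The median difference of the 11 was −1.37 against −0.02 over all genes, and none of the 11 is in the table of genotype.

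**Figure D4:**
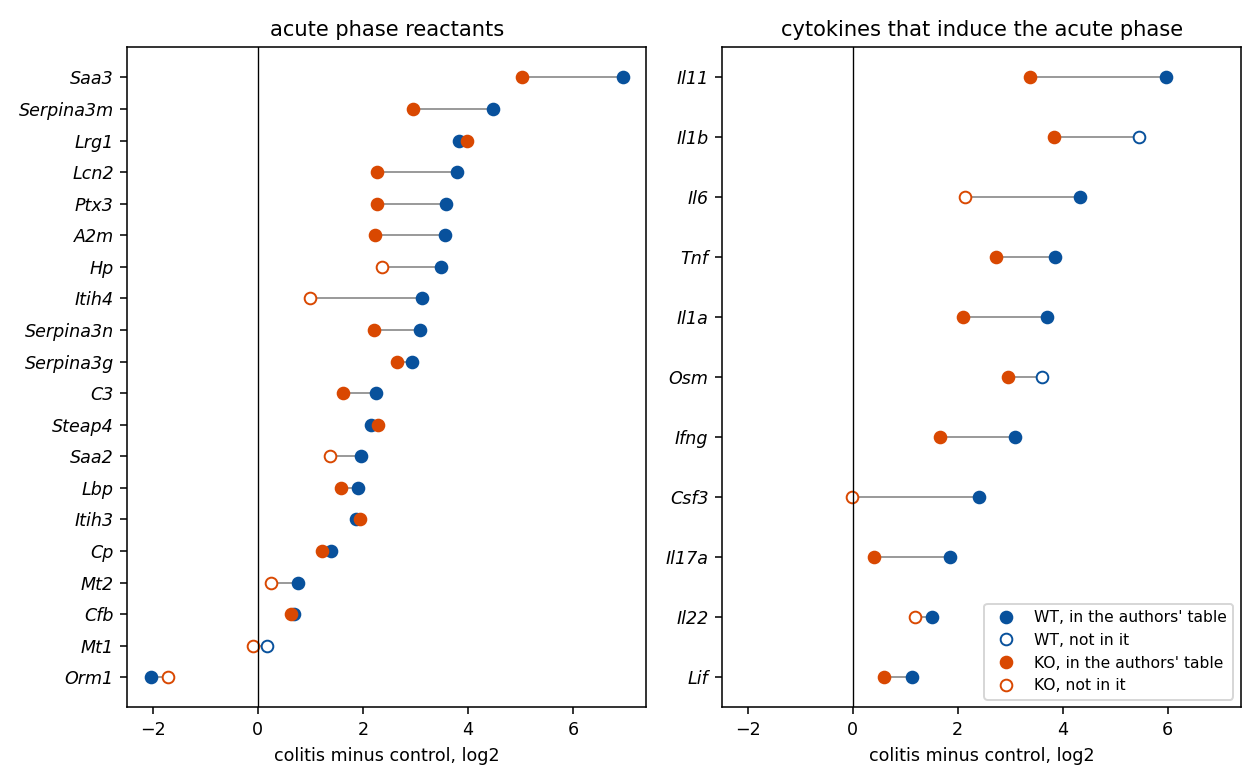
Colitis minus control on the log2 scale (horizontal axis) for each acute phase reactant (left) and inducing cytokine (right) in the tables, in WT (blue) and KO (orange). Filled points are in the authors' table for that genotype and open points are not; Saa3 stands highest on the left, and the KO point lies left of the WT point for all cytokines.

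Receptors and signal transducers of these cytokines changed less. Of 23 genes 14 are in the tables, of which 11 rose and 3 fell in WT, and 10 rose and 1 fell in KO, with a median change of 0.67 and 0.45. Of all genes, 36.6% rose and 26.4% fell in WT, and 44.8% rose and 33.6% fell in KO. Among those with the largest change in WT were Il1r2, a decoy receptor of interleukin 1 (3.49 in WT, 2.85 in KO), Socs3, a feedback inhibitor of STAT3 signalling (3.43, 2.62), and Il22ra2, which encodes the soluble binding protein that blocks interleukin 22 (−1.84, −0.51). Il22ra2 fell in WT and is the one gene of this list in a table of genotype. Its control means were 3.32 (WT) and 3.41 (KO) log2 RPM and its colitis means 1.48 (WT) and 2.91 (KO), so that it was higher in KO by 1.43 in colitis. The control means were alike and only the WT colitis mean was clearly lower.

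Of 17 transcription factors and cofactors of the response, 7 are in the tables. In WT 5 rose and 2 fell, and in KO 4 rose and 2 fell. With 7 genes, the KO counts are near the shares of all genes (44.8% rose and 33.6% fell), and in WT these shares were 36.6% and 26.4%. The largest changes in WT were those of Cebpb (1.31 in WT, 0.48 in KO), Nfkbiz, a nuclear cofactor of NF-κB (1.20, 0.93), Cebpd (1.13, 0.69) and Rel, a subunit of NF-κB (0.90, 0.80). Cebpb is in the table for WT and not in that for KO, and no gene of this list is in a table of genotype.

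Receptors and partners of the encoded proteins went in both directions. Of 17 genes 9 are in the tables, 6 of which rose in WT and 5 in KO, while 3 fell in each. In KO this is near the 44.8% of all genes that rose and the 33.6% that fell, and in WT the shares were 36.6% and 26.4%. Among the largest changes in WT were those of Fpr2, a receptor for serum amyloid A (4.43 in WT, 2.94 in KO), its relative Fpr1 (2.92, 1.94, or 2.42 in KO with the low control mean as deposited) and Mmp9, the gelatinase that is bound by lipocalin 2 (1.76, 0.54). Mmp9 is in the table for WT and not in that for KO. The 3 genes that fell were Slc22a17, a receptor for lipocalin 2 (−1.08, −1.01), Cd36 (−1.06, −1.04) and Rbp2 (−1.52, −1.30), named after their values were seen. Tlr2, a receptor for bacterial lipoproteins, is the one gene of this list in a table of genotype, with a difference of −0.70 between KO and WT control. In colitis its difference was also −0.70, without being in that table.

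A list of 19 genes was drawn up around withholding iron from microbes, the known role of lipocalin 2. It also holds genes with other roles, such as Acod1 and Tfrc. Of these 19 genes, 12 are in the tables. In WT 8 rose, in KO 11, and none fell in either, where 36.6% (WT) and 44.8% (KO) of all genes rose. The largest changes in WT were those of S100a9 (7.66 in WT, 5.30 in KO) and S100a8 (7.29, 4.58), the subunits of the metal-binding protein calprotectin, of Acod1, which makes itaconate (5.97, 3.62), and of the iron carrier Ltf (4.02, 3.95). Acod1 and Ltf are in the table for KO only. The WT control means of S100a8, Acod1 and Ltf and the KO control means of S100a8, S100a9 and Ltf were under the floor, so that these changes are understated. As deposited, the changes in WT were 7.62 for S100a8, 6.41 for Acod1 and 4.94 for Ltf. In KO they were 5.84 for S100a8, 5.83 for S100a9 and 4.87 for Ltf. In colitis S100a8 and S100a9 were lower in KO (differences −2.66 and −2.77), whereas Ltf had nearly the same mean in both genotypes (−0.02). Tfrc, the transferrin receptor, is the one gene of this list in a table of genotype (−0.53 in control). Over the acute phase and iron lists together, 22 of 29 genes in the tables were higher by at least 1 in WT and 22 in KO, and without the 4 genes 18 of 25 in each. Of all genes, 18% were higher by at least 1 in WT and 15.2% in KO.

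Markers of immune cells moved with these genes. Of 12 neutrophil markers 8 are in the tables, and Camp, Ngp, Elane and Mpo are in none. The summed level was 96.2 RPM in WT control, 102 in KO control, 403 in WT colitis and 291 in KO colitis. Most of the control sum came from Ly6g, which was at 6.52 log2 RPM without treatment in WT while S100a8, Cxcr2, Ltf and Mmp8 were under the floor there. In colitis Ly6g was higher in KO than in WT by 0.19. Without Ly6g, a choice made after its values were seen, the sum over the other 7 genes was 4.17, 4.19, 196 and 55 RPM in the same order. Both sums were lower in KO than in WT in colitis, and the size of this difference depends on Ly6g. Of 12 monocyte and macrophage markers 10 are in the tables. All 10 rose in both genotypes, where 36.6% (WT) and 44.8% (KO) of all genes rose. The sum of these markers was 888 and 941 RPM in WT and KO control and 2140 and 2120 in colitis. Their median difference between KO and WT in colitis was 0.01. The part of these cells in the changes of the 4 genes was not tested.

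Markers of other sources of these proteins were mostly in no table. Of 12 epithelial markers only Fabp2 and Car1 are in the tables, with a sum of 4000 RPM in WT control, 3630 in KO control, 2220 in WT colitis and 1330 in KO colitis. Fabp2 fell in WT and Car1 in KO. Of 6 hepatocyte markers, Alb and Ttr are in the tables with a sum of 50.0, 52.8, 17.7 and 32.0 RPM, and both fell in WT. Of 7 adipocyte markers, Cidec alone is in the tables (51.5, 35.7, 25.5 and 18.4 RPM). These sums rest on 2, 2 and 1 genes that are in the tables because they changed, and the source of the 4 transcripts was not tested.

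The genes whose 4 group means were most like those of each gene were found by Euclidean distance of the centred means, a description over 4 values. For Saa3 they were S100a8 (distance 0.48), S100a9 (0.76), the neutrophil attractant Cxcl5 (1.09), the antimicrobial lectin Reg3g (1.34) and Il11 (1.37). Lcn2 was closest to A2m (0.19), Gm16548 (0.19), the bradykinin receptor Bdkrb1 (0.27), the chemokine Ccl7 (0.28) and Lgi2 (0.29). Lbp was closest to Cd300ld (0.03), Lrrc25 (0.05), the inhibitory Fc receptor Fcgr2b (0.07), Bst1 (0.07) and the granule proteoglycan Srgn (0.09). Saa2, with its control means at the floor, was closest to Krt13 (0.03), Tnfaip2 (0.04), Pilrb1 (0.13), Gm37691 (0.13) and Fcgr2b (0.13). Among the 4 genes themselves the nearest pair was Saa2 and Lbp (0.15), and Saa3 was 3.02 from Lcn2, 4.40 from Lbp and 4.45 from Saa2. By this distance, which also reflects the size of a change, Saa3 was farther from Saa2 of the same cluster than from Lcn2. Still, 65 genes were closer to Saa3 than Lcn2 was. The most alike genes depend on the floor, under which control means of S100a8, S100a9, Il11, A2m, Gm16548, Krt13 and Gm37691 lie as well. With low means as deposited, 1 of the 5 genes remained for Saa3, 1 for Lcn2, 0 for Saa2 and 5 for Lbp. By Pearson correlation at most 1 of the 5 genes was the same for any of the 4.

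The other genes of the tables near these had lower means in colitis. Saal1, Saa4, Saa1 and Hps5, which lie closer to Saa3 or Saa2, are in no table and were not analysed here. Within 100 kb of Saa3 or Saa2, the tables hold besides these only Tph1, the rate-limiting enzyme of serotonin synthesis in the gut, 39460 bp from Saa3. Its control means were 5.94 (WT) and 5.96 (KO) log2 RPM and its colitis means 4.96 (WT) and 5.01 (KO), and it fell in both genotypes (changes −0.97 and −0.95). Near Lbp, the tables hold only Snhg11, 42785 bp away, which fell in KO (−1.93) and had a change of −1.12 in WT without being in that table. No gene of the tables lies within 100 kb of Lcn2.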

How the data were processed

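RNA was sequenced from whole tissue of mouse colon, by the study's methods its central part, in 16 libraries of 4 groups, assigned by their titles. Per the labels and the study's methods, the authors aligned reads to GRCm38 with HISAT2 2.1.0, kept uniquely mapped reads, removed rRNA reads (contamination was seen in some samples, not named) and counted exon reads in SeqMonk. Labels give single-end reads of 100 bases, the methods paired-end reads. The authors compared 2 groups at a time with DESeq2. The 4 deposited tables hold genes passing a false discovery rate of 0.05, with the authors' group means on a log2 scale (reads per M reads of the library, a count of 0 set to 0.9 read). The deposited adjusted p-value columns are the authors' own comparisons and were not used beyond the fact of listing.

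Differences of means, lists, distances and motifs were computed in Python 3.11.15 with pandas 2.3.3, numpy 2.4.6 and biopython 1.88, drawn with matplotlib 3.10.9. The recovery of depth and of changes was tried on simulated data built on the same assumptions, with no spread between mice in the expression of a gene. This checks the code and not the assumptions. Geometric mean library sizes came from the lowest means; every mean under 2 reads per library lay on the steps of whole reads (tolerance 1e-05). Means under 3 reads were set to that floor. Counting intervals use the mean reads per library and the number of libraries, for counting error only. Exon lengths are from GENCODE M21, promoters from RefSeq (5 of the 6 genes looked up matched, 3 of the 4 analysed).

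The members, the lists and the motifs were chosen with earlier results of these data known, the motifs also with the sequences seen. Named were the 4 genes, up to 4 genes a list with the largest change in WT, the 5 most alike genes, genes within 100 kb and Smarcad1; 2 genes that this rule names are not reported here. Groups within a comparison share libraries with other comparisons. Alternatives concerned the floor, centring, fold, likeness and length.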

Additional observations from a re-analysis of the deposited data

How the results depend on the processing

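The differences of the 4 genes were recomputed under 4 settings. They stayed within their counting error with low means as deposited and with each group centred on its median over all genes (20 of 20 under each). With a floor of 10 reads per library, the colitis change of Saa2 fell to 0.34 in WT and turned to −0.015 in KO, because its means are then all at the floor. With centring on genes outside the table of a comparison, the difference of colitis changes of Lbp was −0.63; that median rests on 36 genes in neither colitis table. The count of acute phase and iron genes higher in WT was 22 at 2-fold, 26 at 1.5-fold, 16 at 4-fold and 21 among genes above 10 reads. At 2-fold the share of all genes was 18% in WT, and for the other settings no such share is given. The order per length was the same with the longest transcript and with the lowest-numbered transcript, the latter chosen after seeing the data. Of the 5 most alike genes, 1 or 0 remained by Pearson correlation for each of the 4 genes, and with low means as deposited 0 remained for Saa2, 1 for Saa3, 1 for Lcn2 and 5 for Lbp. No paired analysis was possible because the tables hold group means, and for the same reason no library could be left out in turn. Saa2, with 2.0 to 9.22 reads per library, is limited by depth.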

Other observations

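Other marker lists moved in their own ways. All 4 lymphocyte markers in the tables, of 8, rose in both genotypes, where 36.6% (WT) and 44.8% (KO) of all genes rose. The median change of the 4 markers was 2.34 (WT) and 2.72 (KO). Their summed level was 15.9 and 15.4 RPM in WT and KO control against 45.4 and 48.5 in colitis. The largest change in WT was that of Cd3d (3.22 in WT, 2.95 in KO), a subunit of the T cell receptor complex. Of 7 fibroblast markers 6 are in the tables. All 6 rose in WT and 5 rose in KO, against 36.6% (WT) and 44.8% (KO) of all genes. The median change of the 6 markers was 0.97 (WT) and 0.55 (KO). The summed level was 2610 RPM in WT control, 2540 in KO control, 5020 in WT colitis and 3720 in KO colitis. All 6 means were lower in KO colitis than in WT colitis, as were those of 69.9% of the genes that rose in WT colitis. One of the 6 was Col1a1, a chain of type I collagen (9.73 and 9.11 log2 RPM in WT and KO colitis). Of 6 endothelial markers only Tek is in the tables, and it fell in KO (−0.46). No marker of these 3 lists is in a table of genotype.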
